A study of Mus musculus with 28 samples.

Results

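The enzymes that modify and clear drugs, toxins and many of the body's own small molecules were taken as every probe whose annotated gene symbol starts with Gst, Ces, Ugt1, Ugt2, Sult or Fmo, with Adh and a digit, or with Cyp1, Cyp2, Cyp3 or Cyp4 and a letter. The rule found 178 of 25697 probes, which stand for 128 of 16593 genes. Fmod, which encodes the matrix proteoglycan fibromodulin, and Gstcd share the letters but belong to none of these enzyme families. Both stay in the counts because the rule takes them, and both are kept apart where families are described.

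The study profiled total RNA of mouse embryos in 9 groups with 28 Illumina bead chips (MouseRef-8 v2). At E8.25, a stage of 4 to 6 somites, definitive endoderm, ectoderm and mesoderm had 3 arrays each. At E11.5, endoderm had been sorted by flow cytometry from dissected esophagus, lung, stomach, liver, pancreas and intestine, each sample from 10 to 12 pooled embryos, with 3 arrays for each organ and 4 for pancreas. Every group was untreated as far as the labels say, and the sources used here give neither the strain, nor the sorting marker, nor how ectoderm and mesoderm were isolated.

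As background, these enzymes work in a common order. Oxidising and hydrolysing enzymes (cytochrome P450s, flavin monooxygenases, alcohol dehydrogenases and carboxylesterases) open or expose a reactive group, and conjugating enzymes (glutathione S-transferases, UDP glucuronosyltransferases and sulfotransferases) then attach a water-soluble partner, after which transporters move the product into bile or urine. Adult liver is the main site of most of them, many P450s of mouse liver are known to appear only around or after birth, and lung, gut and stomach epithelium carry sets of their own.

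A gene was called above background on an array where its probe exceeded the 99th percentile of 1360 probes for olfactory, vomeronasal, taste and trace amine receptors, genes not thought to be used in these tissues. For the 36 genes with more than 1 probe, values and counts are those of the probe with the highest mean, and other probes are named where they differ. That threshold lay between 6.26 and 6.50 on the log2 intensity scale on 26 arrays, at 6.73 on intestine replicate 3 and at 7.48 on pancreas replicate 3, where 5345 genes passed it against 7061 to 8741 on the other arrays. Pancreas counts of genes above background are therefore low through that array, as the values below show. The 3 liver arrays, the 3 mesoderm arrays, lung replicate 1 and stomach replicate 1 hold no deposited intensity over 20000, while the other 20 arrays do, and liver results are also given within that class. Organ marker lists were highest in their own organ for esophagus, lung, liver, pancreas and intestine, while the summed stomach list was 11.24 to 11.34 in esophagus and 10.20 to 10.37 in stomach on the log2 scale. Of 14 hepatoblast markers, 9 were above background on every liver array, among them Afp, Ttr and Ahsg, while the Alb probe passed on 1 of 3 liver arrays and Tat and Tdo2 on none.

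Most of the 128 genes were not above background anywhere. Of them, 73 passed on no array (72 by any probe, since another Cyp2a5 probe passed on 1 esophagus array), 10 passed on all 28, and a further 10 passed on scattered arrays without covering any group. Liver had the most genes above background on all its arrays, 37 of 128 or 28.9%, against 45.6% of all genes in the same arrays. Esophagus and stomach had 27 each, beside 49.2% and 45.8% of all genes. Intestine had 25 (all genes 40.2%), endoderm 21 (48.3%), ectoderm 19 (47.9%) and pancreas 14 (30.7%). Mesoderm and lung had 18 each (45.6% and 44.9%). Without pancreas replicate 3, pancreas had 28. At least 1 group was covered by 45 of the 128 genes, against 9652 of all 16593 genes.

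**Figure D1:**
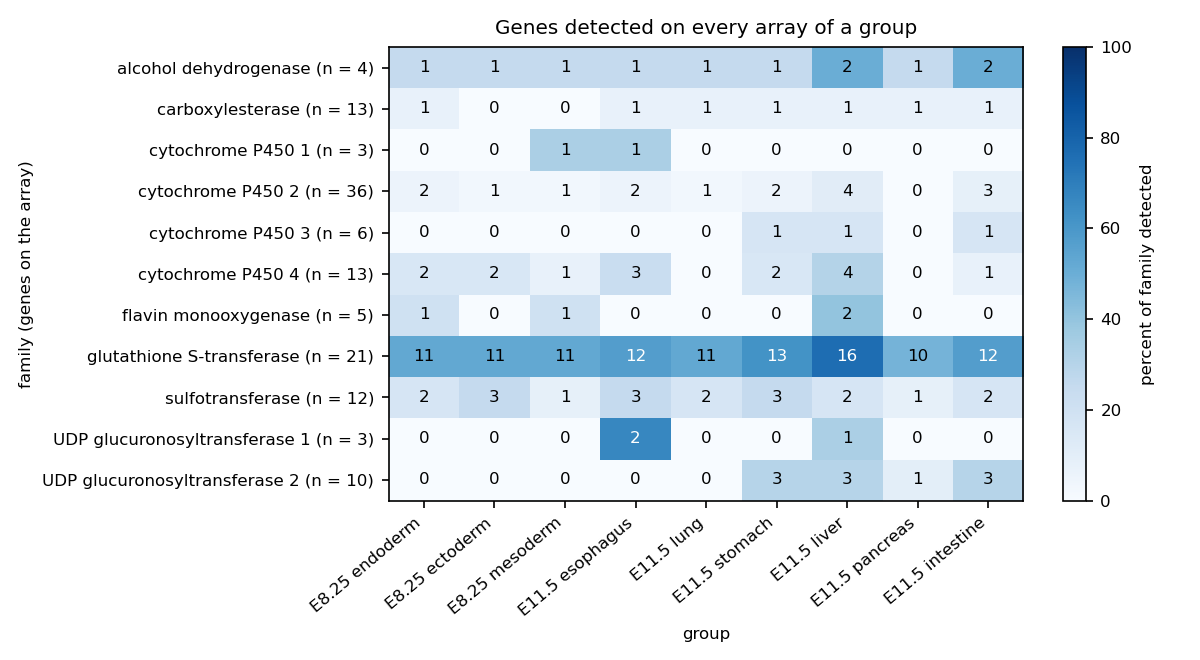
Number of genes of each enzyme family (rows, with the number of genes on the array) above background on every array of each of the 9 groups (columns); colour gives the percent of the family. Glutathione S-transferases led in every group, with 10 to 16 of 21 genes, while 0 to 4 of 36 Cyp2 genes and 0 or 1 of 13 carboxylesterases passed.

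The families differed widely in how much of them was above background. Of 21 glutathione S-transferase genes, 9 were above background on all 28 arrays and 16 on all liver arrays. Of 58 P450 genes, 41 were above background on no array (40 by any probe), none was so on all 28, and 9 were so on all liver arrays. Carboxylesterases passed for 1 gene of 13 (Ces1d), and 11 of the 13 passed on no array. UDP glucuronosyltransferases of the Ugt2 family were above background on no E8.25, esophagus or lung array. Altogether 18 genes were below background on all 9 E8.25 arrays and above it on every array of at least 1 organ (Adh1, Adh4, Cyp2c67, Cyp2c70, Cyp2d10, Cyp3a13, Cyp4v3, Fmo5, Gsta3, Gstp2, Gstp3, Sult1d1, Sult2a8, Ugt1a10, Ugt1a6a, Ugt2b34, Ugt2b35 and Ugt2b36). By any probe it was 17, as a second Sult1d1 probe passed on 1 endoderm and 1 ectoderm array. Of the 18, Adh4, Cyp2c70, Cyp2d10, Gstp3 and Sult2a8 passed on the 3 liver arrays and on no other. How many of all genes met these rules was not counted, so both lists only describe these genes.

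Differences between groups were tested with limma over the 9652 genes that were above background on every array of at least 1 group, 45 of them among the 128 enzyme genes. A difference was called where the Benjamini-Hochberg adjusted p was below 0.05 and the log2 difference was at least 1 in size, and each value is given with its standard error. A gene that passed the filter through the group where it is high had to differ somewhere, so the counts describe the comparisons and lend no support of their own. The comparisons of an organ with the mean of the other 5 share arrays with each other, as do all comparisons with E8.25 endoderm. The organ samples are described as biological replicates, the sources do not say this of the germ layers, and the p-values measure the spread between these samples. In bulk samples, fewer cells of a type and less RNA per cell cannot be told apart.

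Liver stood out in number. Against the mean of the other 5 organs, 16 of the 45 genes were higher in liver, where the background over all tested genes was 6.65%, and 5 were lower, where it was 6.81%. The median log2 difference of the 45 genes was 0.66, beside -0.06 over all tested genes. Adh4, Cyp2c70, Cyp2d10, Fmo5, Gstm6, Gstp2, Gstp3 and Sult2a8 passed the filter through liver alone. The liver counts and this median are thus partly set by the filter. Stomach had 6 higher (background 1.51%) and 1 lower (1.19%), and intestine 7 higher (2.72%) and 1 lower (1.08%). Lung had 2 higher (1.75%) and 9 lower (2.02%), esophagus 1 higher (4.00%) and 7 lower (2.47%), and pancreas 2 higher (2.85%) and 3 lower (1.94%). Being higher in 1 organ than in each of the other 5 was met by 9 genes for liver (background 3.81%), Ces1d for lung (0.559%), Gstm2 for stomach (0.197%) and Gsta3 for pancreas (1.21%), by none for esophagus (1.57%) or intestine (0.746%), and so by 12 genes in all (8.10%). Being lower than in each other organ was met by Gsta3 and Gsto1 for lung (0.0518%) and Gstt3 for pancreas (0.197%), and by none for esophagus (0.186%), stomach (0.00%), liver (2.40%) or intestine (0.0207%). Within the class of arrays without intensities over 20000, the 3 liver arrays against lung replicate 1 and stomach replicate 1 gave 19 higher (background 7.67%) and 5 lower (7.98%) of 42 genes tested.

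**Figure D2:**
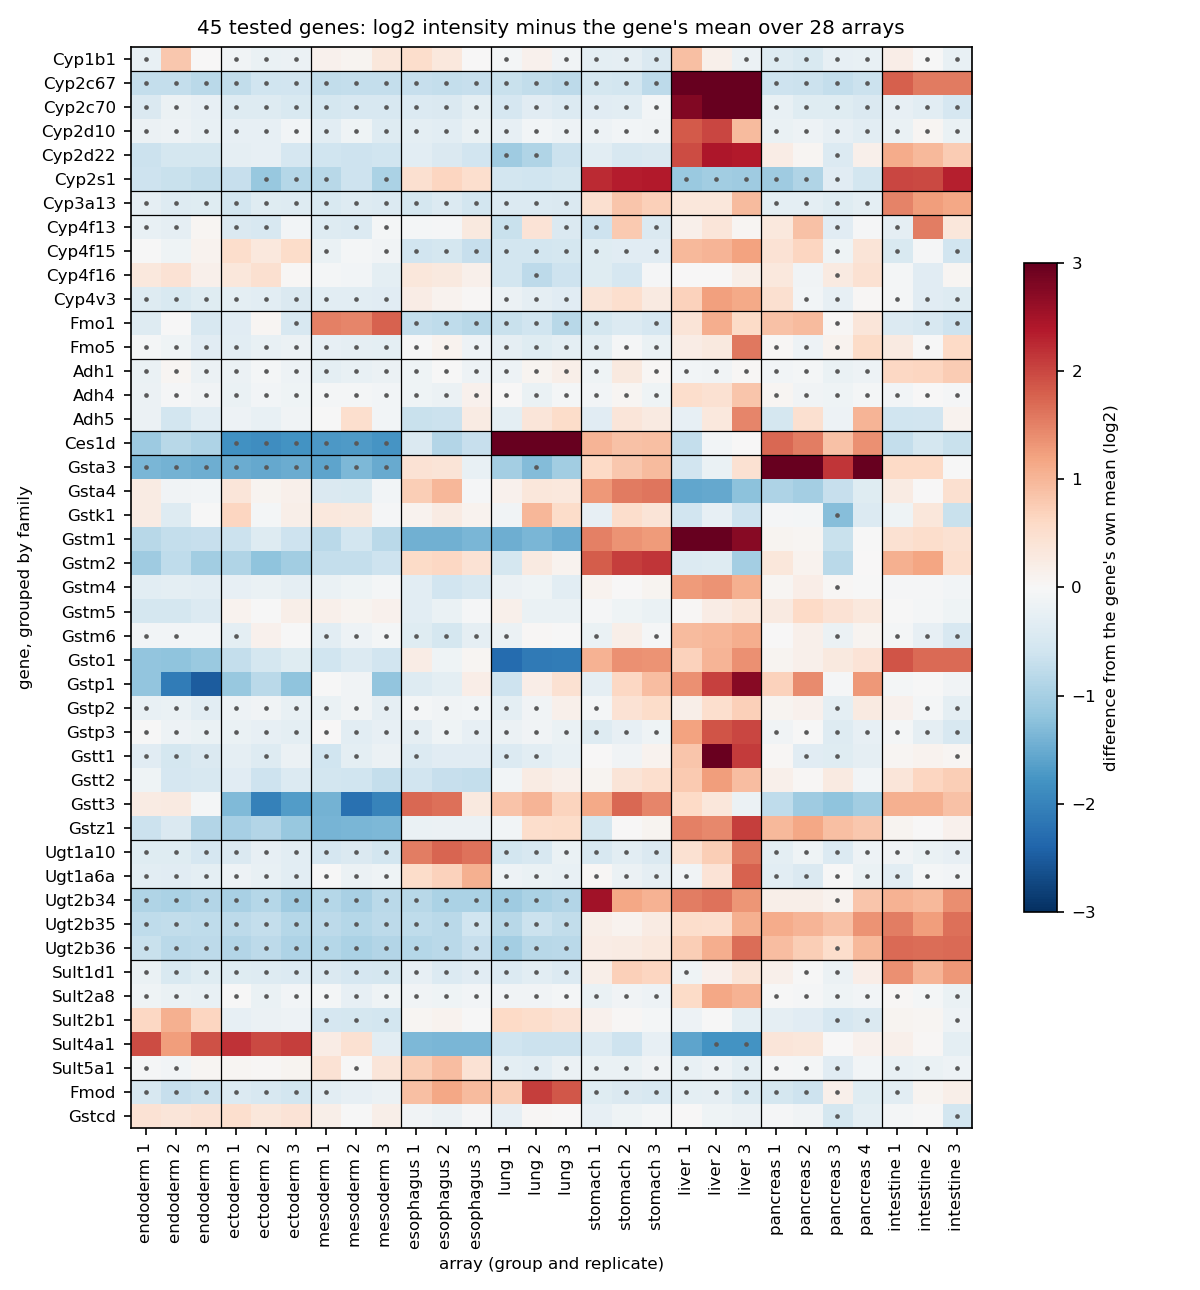
Log2 intensity of each of the 45 tested genes (rows, grouped by family) minus that gene's own mean over the 28 arrays (columns, ordered by group), from blue (lower) to red (higher), with colours capped at a difference of 3; dots mark values not above background. The red blocks at Cyp2c67, Cyp2c70 and Gstm1 in liver, Ces1d in lung, Gsta3 in pancreas and Cyp2s1 in stomach and intestine are the differences described in the text.

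Cytochrome P450s are the heme enzymes that insert oxygen into drugs, steroids and fatty acids. The clearest liver signal among them came from the Cyp2c genes, which lie side by side on chromosome 19 and metabolise drugs and fatty acids. Cyp2c67 read 9.88, 9.97 and 9.79 on the liver arrays and 8.28, 8.05 and 8.06 on the intestine arrays, in log2 intensity. On the other 22 arrays it was not above background, at 5.69 to 5.97. Cyp2c70, which makes the muricholic acids of mouse bile, read 9.09, 9.40 and 9.60 in liver and was not above background on any other array. Neither gene's liver arrays overlapped those of any other group. Cyp2c67 was higher in liver than in the other organs by 3.60 ± 0.07 (adjusted p = 5.04e-22) and Cyp2c70 by 3.39 ± 0.09 (adjusted p = 1.14e-19). Since the dim groups were not above background, these are at least 8.71-fold and at least 7.60-fold. Cyp2c67 was also higher in intestine than in the mean of the other 5 organs, at least 2.03-fold (adjusted p = 1.76e-14). Of 9 tested hepatoblast markers, 5 were also higher in intestine and 2 lower, and Apoa1 and Serpina1b averaged 10.90 and 12.80 there. The summed log2 level of the list was 14.23 to 14.59 in intestine against 16.63 to 16.70 in liver. It was 14.79 to 14.90 in pancreas and 12.78 to 12.93 in stomach, where Cyp2c67 was not above background. Of 6 tested erythroid markers 4 were also higher in intestine. Their part in the intestine signal of Cyp2c67, and of Cyp2d22 below, was not tested.

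The other 8 Cyp2c genes on the array were above background on no array. Cyp2c67 has close relatives in the same cluster whose transcripts its probes could also bind, and its second probe differed by 0.90 in liver, under the limit for a call, and by 0.05 in intestine. The calls for Cyp2c67 rest on 1 of its 2 probes. The upstream sequences of these genes are shown because only this pair of the cluster was above background.

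The promoter windows of 250 bases (GRCm38.p6) are chr19:39649043-39649292 on the minus strand for Cyp2c67 and chr19:40187287-40187536 on the minus strand for Cyp2c70. RefSeq places the start of the Cyp2c67 gene at 39649079, inside its window, so that window is not wholly upstream of the gene. Distances upstream are counted from the downstream end of each window. Capitals mark CAAAGTCCA, a form of the element bound by HNF4 factors, searched on both strands and chosen after these sequences had been read.
Cyp2c67: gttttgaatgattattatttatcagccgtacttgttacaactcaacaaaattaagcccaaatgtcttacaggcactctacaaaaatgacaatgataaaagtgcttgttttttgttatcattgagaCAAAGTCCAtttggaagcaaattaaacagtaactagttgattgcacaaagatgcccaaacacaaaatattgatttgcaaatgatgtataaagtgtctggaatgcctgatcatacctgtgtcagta
Cyp2c70: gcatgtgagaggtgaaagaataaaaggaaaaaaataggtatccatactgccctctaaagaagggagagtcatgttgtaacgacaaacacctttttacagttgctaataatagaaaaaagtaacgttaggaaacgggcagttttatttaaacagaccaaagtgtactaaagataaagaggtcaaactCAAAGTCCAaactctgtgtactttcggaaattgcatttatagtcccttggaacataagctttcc

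The element lies 125 to 117 bases upstream in Cyp2c67 and 64 to 56 bases upstream in Cyp2c70. It occurs in 0.384% of 32851 promoter windows of 250 bases, and in 4 of the 10 Cyp2c promoters. The other 2 are Cyp2c40 and Cyp2c65, which were above background on no array. The letters thus occur in Cyp2c genes that were and were not above background. TGTTTAC (forkhead, in 3.17% of windows), GTTAAT (an HNF1 site, in 6.43%), TGACNNNGC (in 10.2%), TGAGTCAGC (in 0.347%) and GCGTG (in 28.2%) were not found in the Cyp2c67 and Cyp2c70 windows on either strand. A match in letters is a description and not a binding site.

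The Cyp2d genes, relatives of the human drug enzyme CYP2D6, gave 2 further liver genes. Cyp2d22 read 9.08, 9.53 and 9.49 in liver, 8.23, 8.09 and 7.88 in intestine and at most 7.34 elsewhere. Cyp2d10 read 7.95, 8.13 and 7.07 in liver and was not above background on any other array. In neither gene did the liver arrays overlap another group. Cyp2d22 was higher in liver than in the other organs by 2.40 ± 0.11 (adjusted p = 1.19e-14), and Cyp2d10 by 1.77 ± 0.13 (adjusted p = 2.23e-11), which is at least 2.43-fold. Of 8 Cyp2d genes on chromosome 15, 4 were above background on no array, and Cyp2d26 and Cyp2d40 passed on 2 liver arrays each. Cyp2d22 was lower in lung, at 6.05, 6.20 and 6.47, of which only the last was above background, with a log2 difference of -1.35 ± 0.11 (adjusted p = 3.15e-09).

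Cyp2s1, a P450 of epithelia outside the liver that acts on retinoids and prostaglandins, had the opposite pattern. It read 9.46, 9.59 and 9.61 in stomach, 9.22, 9.20 and 9.55 in intestine and 7.72, 7.87 and 7.72 in esophagus. Lung was at 6.69, 6.63 and 6.70, close to endoderm at 6.60, 6.56 and 6.49, and the liver values of 6.12, 6.18 and 6.16 were not above background. Stomach and intestine lay apart from all other groups. Cyp2s1 was higher in stomach by 2.27 ± 0.11 (adjusted p = 8.63e-13) and in intestine by 1.99 ± 0.11 (adjusted p = 1.73e-12) than in the other organs. In liver the log2 difference was -1.82 ± 0.11 (adjusted p = 2.05e-12), which is at least 3.04-fold lower, in pancreas -1.38 ± 0.10 and in lung -1.19 ± 0.11.

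The remaining P450s were closer to background. Cyp3a13, the gut member of the Cyp3a drug enzymes, read 7.97, 7.74 and 7.65 in intestine, 6.96, 7.32 and 7.20 in stomach and 6.81, 6.82 and 7.44 in liver, and was not above background elsewhere. It was higher in intestine than in the other organs by 1.31 ± 0.10 (adjusted p = 2.85e-10), at least 2.14-fold, with 1 of its 3 probes called. The second was at 0.82, and the third, above background on no array, at 0.04. The other 5 Cyp3a genes were above background on no array. Cyp4f15, of a family that hydroxylates leukotrienes and fatty acids, read 7.50, 7.55 and 7.75 in liver and 6.98, 7.18, 6.41 and 6.93 in pancreas, where the third was not above background. It was not above background in esophagus, lung and stomach, and was higher in liver by 1.37 ± 0.11. Cyp4v3, a fatty acid hydroxylase, read 6.99, 7.52 and 7.43 in liver and was higher there by 1.01 ± 0.11, a value at the limit for a call. It fell under that limit, at 0.90 to 1.00, on leaving out any of 8 single arrays (liver 2 or 3, esophagus 3, lung 3, stomach 3, pancreas 2 or 3, intestine 3). Cyp1b1, of the dioxin-induced Cyp1 family, was above background on all mesoderm arrays (6.45, 6.39 and 6.66) and all esophagus arrays (6.85, 6.62 and 6.31), while single arrays of endoderm (7.11) and liver (7.20) were higher, and no difference was called for it.

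Flavin monooxygenases oxidise nitrogen and sulfur in drugs. Fmo1 was highest in E8.25 mesoderm, at 8.31, 8.28 and 8.57. The other germ layers lay at 6.33 to 6.86, and pancreas (7.69, 7.76, 6.85 and 7.16, the third not above background) and liver (7.20, 7.89 and 7.39) lay between. Mesoderm did not overlap any other group, and exceeded the mean of endoderm and ectoderm by 1.85 ± 0.17 (adjusted p = 1.27e-08). Mesoderm lies wholly among the arrays without intensities over 20000, so that class and mesoderm cannot be told apart at E8.25. Liver exceeded the other organs by 1.07 ± 0.15, and by 0.87 without liver replicate 2. Fmo5 read 6.43, 6.50 and 7.78 in liver, with 1 high array and 2 near background, and no difference was called.

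Alcohol dehydrogenases act on ethanol, retinol and aldehydes. Adh5, which clears formaldehyde bound to glutathione and is used in most tissues, was above background on all 28 arrays, from 8.40 to 10.53, with no difference called. Adh4 was just above background on the liver arrays alone (6.48, 6.42 and 6.78). Adh1, the main ethanol-oxidising enzyme of adult liver, was below background in liver (6.00, 5.97 and 6.12) and above it in intestine (6.70, 6.72 and 6.85), without a call.

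Ces1d, a carboxylesterase that hydrolyses ester drugs and stored triacylglycerol, was the highest lung difference among the tested enzymes. It read 10.95, 11.34 and 11.26 in lung, 9.59, 9.40, 8.75 and 9.25 in pancreas and 8.90, 8.76 and 8.77 in stomach. Liver (7.16, 7.79 and 7.89), esophagus (7.44, 7.00 and 7.19), intestine (7.15, 7.34 and 7.19) and E8.25 endoderm (6.78, 7.04 and 6.94) were lower, and no ectoderm or mesoderm array was above background. The lung arrays lay apart from every other group. Lung exceeded the mean of the other organs by 3.16 ± 0.14 (adjusted p = 2.45e-14), an 8.96-fold difference, and exceeded each of them. In order of level, lung was followed by pancreas and stomach, which differed by 0.44 (adjusted p = 0.0596), and then by liver, intestine and esophagus, among which no difference was called. The log2 difference was -1.61 ± 0.14 in esophagus, -1.59 ± 0.14 in intestine and -1.12 ± 0.14 in liver. The liver value was -0.90 without liver replicate 1. The other 12 carboxylesterases covered no group.

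**Figure D3:**
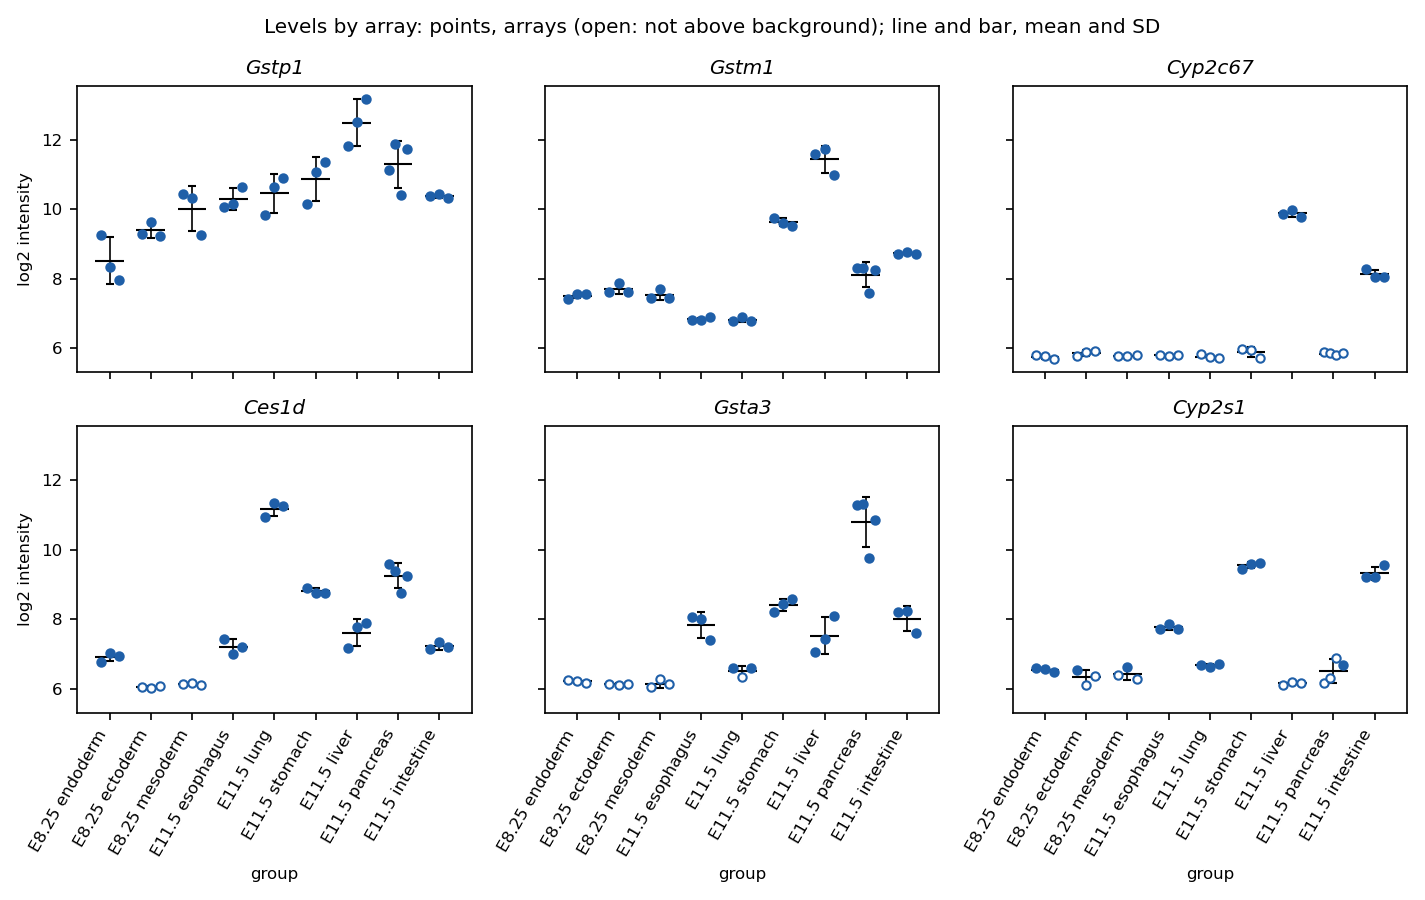
Log2 intensity of 6 genes on every array by group; filled points are above background, open points are not, and the line and bar give the mean and SD of the group. Gstp1 spans 7.96 to 13.18 and is highest in liver, Gstm1 and Cyp2c67 are highest in liver, Ces1d in lung, Gsta3 in pancreas and Cyp2s1 in stomach and intestine.

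Glutathione S-transferases couple reactive compounds to glutathione. The pi class gene Gstp1 was above background on every array and had the widest spread within groups. It read 11.81, 12.51 and 13.18 in liver and 11.13, 11.87, 10.42 and 11.75 in pancreas. Stomach had 10.17, 11.06 and 11.38, lung 9.83, 10.65 and 10.91, intestine 10.39, 10.45 and 10.34 and esophagus 10.06, 10.16 and 10.65. At E8.25 the values were 9.27, 8.35 and 7.96 in endoderm, 9.30, 9.64 and 9.24 in ectoderm and 10.44, 10.33 and 9.27 in mesoderm. The lowest liver array lay just under the highest pancreas array, and endoderm overlapped ectoderm and mesoderm at its highest array.

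Gstp1 was higher in liver than in the other 5 organs by 1.84 ± 0.32 (adjusted p = 3.34e-05), and liver exceeded each of them, pancreas by 1.20 (adjusted p = 0.0138). All 3 Gstp1 probes were called higher in liver than in the other organs, by 1.21 to 1.84. Among the other organs pancreas exceeded esophagus by 1.00 (adjusted p = 0.0474), and no other pair was called. Liver no longer exceeded each other organ without liver replicate 3, without pancreas replicate 3 (alone or with intestine replicate 3) or with array weights. Gstp2 and Gstp3, its neighbours, were fainter: Gstp3 read 7.54, 8.22 and 8.33 in liver and was above background nowhere else, a liver difference of 1.92 ± 0.12 (adjusted p = 1.53e-12) and at least 3.02-fold. Gstp2 read 6.52, 6.85 and 7.06 in liver, with no call, and its transcript is so like that of Gstp1 that signals of the 2 genes may mix.

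The 250-base promoter windows of the Gstp genes are shown because the 3 neighbours differ in level. Sequence identity was measured for Gstp1 and Gstp2 only. In GRCm38.p6 they are chr19:4037913-4038162 for Gstp1, chr19:4042222-4042471 for Gstp2 and chr19:4059448-4059697 for Gstp3, all on the minus strand. RefSeq places the start of the Gstp3 gene at 4059605, inside its window, so part of that window lies within the gene. The Gstp3 window is therefore not placed like those of Gstp1 and Gstp2. Distances upstream are counted from the downstream end of each window. Capitals mark TGAGTCAGC, a Maf-type element, and GCGTG, the core of the xenobiotic response element.
Gstp1: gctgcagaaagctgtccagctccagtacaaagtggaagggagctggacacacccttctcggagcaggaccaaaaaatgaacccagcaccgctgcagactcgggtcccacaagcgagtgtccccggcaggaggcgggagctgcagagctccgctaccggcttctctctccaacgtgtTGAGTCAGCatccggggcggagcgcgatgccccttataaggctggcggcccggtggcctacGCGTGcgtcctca
Gstp2: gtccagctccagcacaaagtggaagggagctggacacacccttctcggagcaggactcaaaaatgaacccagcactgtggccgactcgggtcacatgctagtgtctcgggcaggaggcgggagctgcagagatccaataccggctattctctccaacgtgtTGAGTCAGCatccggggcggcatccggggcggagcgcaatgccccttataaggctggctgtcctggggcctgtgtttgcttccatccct
Gstp3: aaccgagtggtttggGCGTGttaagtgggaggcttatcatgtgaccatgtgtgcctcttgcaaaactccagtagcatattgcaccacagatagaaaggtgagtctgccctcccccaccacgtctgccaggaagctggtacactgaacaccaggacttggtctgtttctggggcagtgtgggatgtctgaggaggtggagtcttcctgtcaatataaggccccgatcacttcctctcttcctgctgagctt

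Gstp1 and Gstp2 were identical at 208 of 235 aligned bases, or 88.5%. TGAGTCAGC lies 74 to 66 bases upstream in Gstp1 and 89 to 81 bases upstream in Gstp2, is absent from the Gstp3 window, and occurs in 0.347% of all 32851 windows. Among the 110 enzyme genes with a promoter entry, these 2 alone hold it. GCGTG lies 13 to 9 bases upstream in Gstp1 and 235 to 231 bases upstream in Gstp3, in letters found in 28.2% of windows. None of the matches overlap, and the other motifs were not found in these 3 windows.

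The mu class is clustered on chromosome 3, where 5 of 6 genes were above background on all liver arrays. Gstm1, a main mu enzyme of adult liver, read 11.58, 11.74 and 10.99 in liver, 9.76, 9.61 and 9.53 in stomach and 8.72, 8.77 and 8.72 in intestine. Pancreas had 7.59 to 8.33, and lung and esophagus had 6.77 to 6.90, under all 9 E8.25 arrays at 7.43 to 7.88. Liver did not overlap any other group. Gstm1 was higher in liver by 3.41 ± 0.13 (adjusted p = 1.47e-16), a 10.6-fold difference, and in stomach by 1.24 ± 0.13 (adjusted p = 1.28e-07). The log2 difference was -2.13 ± 0.13 in lung and -2.12 ± 0.13 in esophagus. The second Gstm1 probe did not show these differences. It averaged 6.36 in liver, where 2 arrays were above background, and 6.68 in pancreas, and differed by 0.02 in liver and -0.11 in stomach. With the mean over all probes Gstm1 was no longer higher in liver than in each other organ.

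Gstm2, its neighbour, differed in place. It read 11.54, 11.79 and 11.86 in stomach, 10.79, 10.91 and 10.22 in intestine and 10.29, 10.35 and 10.16 in esophagus, but 9.32, 9.33 and 8.69 in liver. Stomach lay apart from all groups, by 1.86 ± 0.18 over the other organs (adjusted p = 6.25e-08) with all 3 Gstm2 probes called, and it exceeded each other organ. It no longer did so without intestine replicate 3 (alone or with pancreas replicate 3) or with array weights. Liver was lower, at a log2 difference of -1.27 ± 0.18. Gstm4 (8.44, 8.52 and 8.23 in liver) and Gstm6 (7.34, 7.38 and 7.47) were higher in liver by 1.34 ± 0.07 and 1.16 ± 0.10, the second Gstm6 probe being above background on no array. Gstm5 was above background on all 28 arrays, from 9.27 to 10.39, without a call, and Gstm3 was above background on none. Close similarity within the mu class may let a probe bind a neighbour's transcript.

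The alpha class split between pancreas and stomach. Gsta3, which conjugates aflatoxin epoxide in mouse liver, read 11.30, 11.31, 9.76 and 10.85 in pancreas, 8.22, 8.44 and 8.57 in stomach and 7.05, 7.43 and 8.09 in liver. It was not above background on any E8.25 array, at 6.03 to 6.28, and lung was lowest of the organs, at 6.61, 6.34 and 6.59, the second not above background. Pancreas lay apart from all groups. It exceeded the other organs by 3.15 ± 0.20 (adjusted p = 9.18e-12), and the lung difference was -2.01 ± 0.23 (adjusted p = 2.69e-07). The second Gsta3 probe, above background on 3 pancreas arrays and no other, differed by 0.61 in pancreas and -0.23 in lung. Gsta4, which clears the lipid peroxidation product hydroxynonenal, read 10.50, 10.77 and 10.81 in stomach and 7.65, 7.68 and 7.96 in liver. Those were the highest and the lowest groups, at 1.71 ± 0.16 (adjusted p = 2.15e-08) and -1.80 ± 0.16 (adjusted p = 9.80e-10) against the other organs. Gsta1 and Gsta2, the other alpha genes on the array, were above background on none.

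Gsto1, an omega enzyme that reduces dehydroascorbate, was least in lung. It read 8.18, 8.35 and 8.39 there, under E8.25 endoderm at 9.30, 9.28 and 9.37, and 12.37, 12.19 and 12.18 in intestine. Stomach had 11.53, 11.85 and 11.82, liver 11.18, 11.51 and 11.85, and pancreas and esophagus 10.36 to 10.89. Lung did not overlap any group, with a log2 difference from the other organs of -3.04 ± 0.11 (adjusted p = 5.68e-16), or 8.24-fold lower. Gsto1 was lower in lung than in each other organ. Gsto1 was higher in intestine by 1.69 ± 0.11 and in stomach by 1.07 ± 0.11.

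The theta class had its own pattern. Gstt1, which acts on small halogenated compounds, read 7.49, 9.62 and 8.76 in liver and at most 6.77 on any other array, by 2.13 ± 0.22 over the other organs (adjusted p = 1.20e-08). Gstt3 read 8.20, 7.88, 7.75 and 7.91 in pancreas, 10.68, 10.61 and 9.25 in esophagus and 8.77 to 10.69 over the other organs. Pancreas lay under every other organ, at -1.97 ± 0.20 (adjusted p = 2.54e-08). Gstt2 read 8.34, 8.80 and 8.47 in liver and 6.97, 6.85 and 6.83 in esophagus, where its difference was -1.08 ± 0.11 (adjusted p = 3.21e-08). Gstz1, the zeta enzyme of tyrosine breakdown, was above background on all 28 arrays and read 10.91, 10.84 and 11.46 in liver. Pancreas followed at 10.21 to 10.54, and liver exceeded the other organs by 1.47 ± 0.14. Gstk1, the kappa enzyme of mitochondria and peroxisomes, read 7.52, 7.84 and 7.48 in liver and had no call.

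UDP glucuronosyltransferases attach glucuronic acid to bilirubin, steroids and drugs. Ugt1a10 and Ugt1a6a, which share exons in the Ugt1a locus and so may share signal, were above background in esophagus, with Ugt1a10 at 7.88, 8.10 and 7.97 and Ugt1a6a at 6.75, 6.88 and 7.26. In liver they read 6.79, 7.08 and 7.93, and 6.10, 6.61 and 7.97, where the first Ugt1a6a value was not above background. In all other groups neither was above background on any array. Of the other 2 Ugt1a6a probes, 1 passed on 2 esophagus arrays and the other on none. Ugt1a10 was higher in esophagus by 1.71 ± 0.13 (adjusted p = 3.73e-10), at least 2.55-fold.

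The Ugt2b genes were shared by the other 4 organs. Ugt2b34 read 9.26, 7.90 and 7.79 in stomach, 8.28, 8.37 and 8.08 in liver and 7.79, 7.73 and 8.14 in intestine, and 6.92, 6.93, 6.85 and 7.59 in pancreas, where the third was not above background. It was higher in liver by 1.26 ± 0.19 and in stomach by 1.35 ± 0.19, the latter 0.88 without stomach replicate 1. Ugt2b35 read 7.98 to 8.37 in intestine and 7.59 to 8.06 in pancreas, and was higher in intestine by 1.38 ± 0.10 (adjusted p = 2.14e-10). Ugt2b36 read 8.46, 8.45 and 8.48 in intestine and 7.51, 7.87 and 8.44 in liver, and was higher in intestine by 1.59 ± 0.11 (adjusted p = 1.42e-10). The second Ugt2b36 probe was at 0.94 in intestine and -0.81 in lung, under the limit for a call, and was called lower in esophagus at -1.02. No lung or esophagus array was above background for these 3 genes, and all were called lower there, with log2 differences of -1.27 to -1.68. The other 7 Ugt2 genes on the array were above background on no array, and the 3 that were are close relatives.

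Sulfotransferases attach sulfate to hormones, bile acids and drugs. Sult4a1, a brain sulfotransferase without a settled substrate, fell between the stages. It read 9.98, 9.27 and 9.93 in endoderm, 10.19, 10.01 and 10.09 in ectoderm and 8.24, 8.47 and 7.70 in mesoderm. The organs lay at 8.04 to 8.37 in pancreas, 7.73 to 8.18 in intestine, 7.40 to 7.79 in stomach, 7.37 to 7.43 in lung, 6.65 to 6.68 in esophagus and 6.22 to 6.43 in liver, where replicates 2 and 3 were not above background. No organ array reached an endoderm or ectoderm array. Liver was lower than the other organs, at -1.29 ± 0.14, and pancreas was higher, by 1.04 ± 0.12 (adjusted p = 3.19e-07) and by 0.99 without pancreas replicate 1.

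Sult2a8, a bile acid sulfotransferase of mouse liver, read 6.56, 7.14 and 7.02 in liver and was above background nowhere else, a difference of 1.02 ± 0.08. It went to 0.90 to 1.00 on leaving out liver 2, liver 3, pancreas 3 or intestine 3. Sult1d1, which acts on catecholamines, read 7.67, 7.32 and 7.58 in intestine and 6.46, 7.00 and 6.93 in stomach, and was higher in intestine by 1.24 ± 0.11 (adjusted p = 2.77e-09), with its second probe at -0.07. Sult2b1, a cholesterol sulfotransferase, read 7.30, 7.75 and 7.33 in E8.25 endoderm and 6.43 to 6.52 in ectoderm, and was not above background in mesoderm. Endoderm exceeded the other layers by 1.15 ± 0.09 (adjusted p = 2.60e-09), at least 2.01-fold, with 1 of 3 Sult2b1 probes called.

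Among the germ layers calls were few, as they were over all tested genes, and the counts are not a result about the enzymes. Endoderm had 2 genes higher (background 2.22%) and 1 lower (1.53%), ectoderm 1 higher (0.860%) and none lower (1.23%), and mesoderm 2 higher (4.11%) and 2 lower (2.14%). Without background correction all tested genes split into 647 higher and 568 lower in mesoderm, against 397 and 207 as reported. Gstt3 was higher in endoderm, at 9.20, 9.21 and 8.90 against 6.71 to 7.63 on the 6 other E8.25 arrays, by 1.93 ± 0.25 (adjusted p = 3.00e-06). It was lower in mesoderm, at a log2 difference of -1.12 ± 0.25 (adjusted p = 0.00109), and -0.95 without mesoderm replicate 2. Sult4a1 was higher in ectoderm by 1.17 ± 0.15 and lower in mesoderm, at -1.78 ± 0.15 (adjusted p = 4.00e-09). The Gstp1 differences, -1.18 ± 0.36 in endoderm (adjusted p = 0.02) and 1.05 ± 0.36 in mesoderm (adjusted p = 0.0235), rest on single arrays and on 1 of 3 probes each. The 3 probes ran from -1.18 to -0.42 in endoderm and from 0.54 to 1.05 in mesoderm. The endoderm value was -1.09 (adjusted p = 0.0907) without endoderm replicate 2 and -0.89 (adjusted p = 0.153) without replicate 3. The mesoderm value was 0.91, 0.84 and 0.89 without endoderm replicate 3, mesoderm replicate 1 and mesoderm replicate 2, with adjusted p of 0.0577, 0.135 and 0.109.

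From E8.25 endoderm to E11.5, enzyme calls went upward more often than downward. In the mean of the 6 organs 12 of 45 were higher than in E8.25 endoderm (background 3.42%) and 1, Sult4a1, was lower (3.47%). The median log2 difference was 0.48, beside -0.02 over all tested genes. Of the 45 genes, 18 were below background on all E8.25 arrays and were tested only through an organ. They had room to rise and little to fall. Gsta3, Ugt2b34, Ugt2b35, Ugt2b36 and Cyp2c67, among the rises below, are such genes. The upward counts and medians here, and those for liver against E8.25 endoderm, are thus partly set by the filter. Gstp1 rose by 2.44 ± 0.31 (adjusted p = 1.12e-06), Gsta3 by 1.97 ± 0.22 (adjusted p = 1.64e-07), Ces1d by 1.63 ± 0.14 (adjusted p = 1.22e-09), Gsto1 by 1.52 ± 0.11 and Gstm2 by 1.41 ± 0.18. Ugt2b34, Ugt2b36, Cyp2c67, Cyp2s1, Gstz1, Ugt2b35 and Gstm1 rose by 1.08 to 1.35. Sult4a1 fell by 2.37 ± 0.14 (adjusted p = 1.47e-12). Gstz1 was at 0.99 without endoderm replicate 3. Of the 3 Gstp1 probes 2 were called, at 0.51 to 2.44, and of the 2 Ugt2b36 probes and the 2 Cyp2c67 probes 1 each. The second probes of Gsta3 and Gstm1 were above background on every array of no group and were not tested.

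Gstp1 was called higher than in E8.25 endoderm in each organ, from 1.76 ± 0.41 in esophagus (adjusted p = 0.00142) to 3.97 ± 0.41 in liver (adjusted p = 2.23e-08). The size depended on the probe. Of the other 2 Gstp1 probes, the brighter differed by 2.67 in liver and 1.48 in pancreas but by 0.60 in lung and 0.51 in esophagus. The fainter differed by 1.52 in liver and by 0.20 to 0.47 in the other 5 organs. Ces1d rose by 4.27 ± 0.18 in lung, 2.33 ± 0.17 in pancreas and 1.89 ± 0.18 in stomach, and was not called in the other 3 organs. In liver 22 genes were higher than in E8.25 endoderm (background 9.16%) and 2 were lower (9.40%), with a median of 0.98 beside -0.10 over all tested genes. The leading rises were Cyp2c67, at least 11.8-fold, Gstp1, at 15.7-fold, Gstm1, at 15.2-fold, Cyp2c70, at least 8.23-fold, and Cyp2d22, at 7.07-fold. The second Cyp2c67 probe differed by 0.92, under the limit for a call, and the second Gstm1 probe by 0.25. The Cyp2c67 and Gstm1 rises therefore rest on 1 of 2 probes each. Gsta4 fell by 1.45 ± 0.21 and Sult4a1 by 3.44 ± 0.18. Ugt1a6a rose by 1.01 ± 0.26 and by 0.47 without liver replicate 3, and Sult2a8, Cyp4f15 and Ugt1a10 went from 1.11, 1.07 and 1.33 to 0.99, 1.00 and 0.99 without liver replicate 2, 3 and 3.

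Which enzymes of adult liver were still silent at E11.5 was read from a list of 97 genes known as abundant there, chosen from general knowledge, of which 81 are on the array. On all 3 liver arrays 30 were above background, on some of them 4 (Cyp2d26, Cyp4a12a, Sult1d1 and Ugt1a6a), and on none 47. Of the 47, 43 were above background on no array of any group, or 42 by any probe, the exception being Cyp2a5. The other 4 (Adh1, Ces1b, Cyp2f2 and Sult5a1) passed on an array of another organ. Not above background says that no signal was seen over these receptor probes, not that no transcript is present.

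The silent set of 47 genes held 25 of the 34 P450s among the 81 listed genes on the array. It held Cyp1a2, which metabolises caffeine, Cyp2e1, the ethanol-inducible P450, and the whole Cyp2a and Cyp2b group on chromosome 7, of which 7 genes are on the array (the list names Cyp2a5, Cyp2a12, Cyp2b9, Cyp2b10 and Cyp2b13). It also held Cyp2c29, Cyp2c37, Cyp2c38, Cyp2c39, Cyp2c40, Cyp2c50, Cyp2d9, Cyp2f2 and Cyp2j5. Of the Cyp3a genes, Cyp3a11, the main adult form, and Cyp3a16, known as a fetal and neonatal form, were silent with Cyp3a25, Cyp3a41a and Cyp3a44, and of the Cyp4 genes Cyp4a12b, Cyp4a14, Cyp4a31 and Cyp4f14. Among hydrolysing and oxidising enzymes Adh1 and the carboxylesterases Ces1b, Ces1c, Ces1e, Ces1f, Ces1g, Ces2a, Ces2e and Ces3b were silent. Among conjugating enzymes Gsta1, Gsta2, Gstm3, Sult1a1, Sult1b1, Sult1c2, Sult3a1, Sult5a1, Ugt2a3, Ugt2b1, Ugt2b5, Ugt2b37 and Ugt2b38 were silent.

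**Figure D4:**
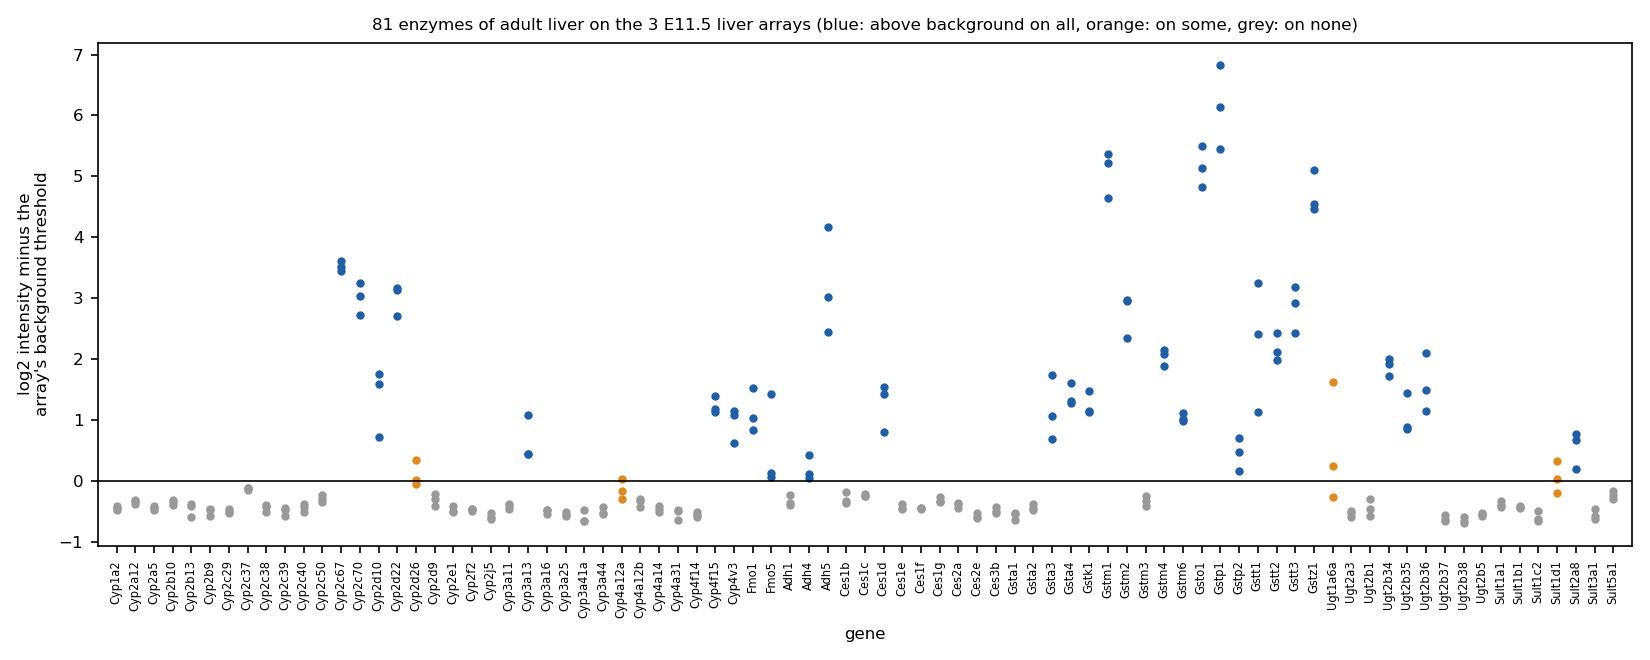
Log2 intensity on each of the 3 E11.5 liver arrays minus that array's background threshold, for the 81 adult liver enzymes on the array, grouped by family; the line at 0 is the threshold. Blue genes (30) passed on all liver arrays, orange (4) on some and grey (47) on none; heights of different genes come from different probes and are not compared.

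Glutathione S-transferases made up the other side, with 14 of the 30 enzymes above background (Gsta3, Gsta4, Gstk1, Gstm1, Gstm2, Gstm4, Gstm6, Gsto1, Gstp1, Gstp2, Gstt1, Gstt2, Gstt3, Gstz1) beside 7 P450s, Adh4, Adh5, Ces1d, Fmo1, Fmo5, Sult2a8 and 3 Ugt2b genes. By gene cluster, 3 of 3 Gstp genes and 5 of 6 Gstm genes were above background on all liver arrays, against 2 of 10 Cyp2c, 2 of 8 Cyp2d, 1 of 6 Cyp3a, 1 of 13 Ces and 3 of 10 Ugt2 genes.

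Markers of other cells moved with liver. The hepatoblast list was higher in liver for 9 of 9 tested markers, with a summed log2 level of 16.63 to 16.70 against at most 14.90 elsewhere. The leukocyte list was higher for 6 of 6 tested markers, at 12.08 to 12.33 in liver and at most 9.87 in the other organs, with Ptprc above background on no array. The megakaryocyte list was higher for 4 of 4, at 11.24 to 12.36 against at most 8.41. The erythroid list was higher for 5 of 6, at 11.28 to 13.52, while intestine had 12.78 to 13.96. Of 5 tested epithelial markers 3 were lower in liver, at a summed 12.03 to 12.38 against 13.79 to 14.82 in the other organs. Mesenchymal markers were higher for 2 of 9 and endothelial for 1 of 6. The part of these cells in the liver results was not tested.

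Other genes of the pathway were followed with 3 lists. Of 15 tested regulators, 6 were higher in liver (background 6.65%) and 1 lower (6.81%) than in the other organs, among them Hnf4a, a nuclear receptor needed for the hepatocyte programme, by 3.12 ± 0.19 (adjusted p = 1.89e-12), and Nr1i2, the pregnane X receptor that induces Cyp3a genes, at least 1.80-fold (adjusted p = 1.78e-08). Foxa3, a forkhead factor, was higher by 2.36 ± 0.17, and Foxa1 lower, at -1.31 ± 0.30. Hnf4a was lower in esophagus and lung, at -2.55 ± 0.19 and -2.49 ± 0.19. In the other organs 0 to 2 regulators were higher, where the background was 1.51% to 4.00%, and 1 to 3 lower, where it was 1.08% to 2.47%.

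Of 31 tested partner and other detoxification enzymes 9 were higher in liver and 5 lower, against the same liver background. Maob, which oxidises amines, was higher by 2.34 ± 0.22 and Mgst2, a microsomal glutathione transferase, by 2.33 ± 0.23, while Gpx2, the glutathione peroxidase of gut epithelium, was at -2.65 ± 0.17, at least 5.31-fold lower, and Mgst1 at -1.61 ± 0.16. In esophagus Cbr3, a carbonyl reductase, was higher by 2.34 ± 0.12, Gpx2 by 2.21 ± 0.17, Pon2 by 2.04 ± 0.09 and Aldh1a1, which makes retinoic acid, by 1.94 ± 0.15. That is 4 of 31 higher (background 4.00%). Mesenchymal markers moved with esophagus: 3 of 9 tested were higher there and 1 lower, the summed log2 level was 13.08 to 13.31 against at most 11.49 in the other organs, and Dcn averaged 12.45. Their part in the esophagus values was not tested. In pancreas Mgst1 was higher by 1.75 ± 0.14. Of 6 tested transporters 5 were higher in liver and none lower, against the same background. They included Slc47a1, which exports organic cations, by 2.09 ± 0.14, Abcb4, the phospholipid pump of bile, by 1.93 ± 0.10, and Abcc2, which exports conjugates into bile, by 1.80 ± 0.10 (adjusted p = 2.47e-13).

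The genes whose group means most resembled those of Gstp1 over the 9 groups, by Pearson correlation, were Ndufa6 (0.974), Psenen (0.962), Ndufs3 (0.960), Naglu (0.959) and Cyba (0.953). For Ces1d they were Col27a1 (0.959), AI467606 (0.954), G6pc3 (0.928), Ykt6 (0.919) and Add3 (0.914). These are descriptions over 9 points that share arrays and normalization.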

How the data were processed

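The arrays were 28 Illumina MouseRef-8 v2 chips, 1 for each sample. The deposited values are intensities that the authors took from BeadStudio, per the submitters' processing notes, and the sources used here do not give how the authors normalized them. A second deposited table, with 112 columns of values, was not used because its column names match no sample's labels. It also holds detection p-values, which could not be tied to samples, so receptor probes stood in for negative controls. Gene names came from the platform annotation, in which 23978 of 25697 probes have 1 symbol, 0 several and 1719 none.

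From the deposited intensities, background was corrected with normexp (offset 50), arrays were quantile normalized and log2 was taken (R 4.3.3, limma 3.58.1, statmod 1.5.0). Each gene took its probe with the highest mean. A gene was tested if above the 99th percentile of the receptor probes on every array of at least 1 group. One limma model with 9 group means, lmFit and eBayes, was fitted to the 9652 genes tested, and adjusted p is Benjamini-Hochberg over them. A bound ("at least") sets the bright group's mean against the threshold, or the probe's own value where higher, on arrays where the dim group was not above background. In liver data simulated over 9652 genes, 99 of 100 genes changed by 1.5 and 100 of 100 changed by 3 (log2) were recovered, with 0 false calls. The simulation drew independent normal noise around 1 mean per gene, with that gene's fitted spread. It held no array effects and no background floor, so it cannot show how often these would give false calls.

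Genes were named if called in a comparison, above background in all 6 organs, or on the adult liver list, with full statistics for at most the 10 largest changes a comparison, and at most 4 for each pathway list. The values of Adh1, Cyp1b1, Cyp4f13 and Sult5a1 fall outside that rule and were chosen after they had been seen. The members and lists were chosen with earlier results of these data known. The number of arrays limits the precision, and replicates of a group correlated at 0.946 to 0.995. Same-numbered arrays did not deviate together across the groups as a whole (39 of 108 correlations above 0.1). In 7 of 36 group pairs, however, all 3 correlations were above 0.1. They reached 0.879 between lung and stomach, 0.667 between pancreas and intestine and 0.37 between endoderm and ectoderm. Other pairs went the opposite way, down to -0.414 between endoderm and stomach. A fit with the replicate number as a block was also made. It takes the effect of a number to be the same in all groups, so it cannot model numbers shared by only some groups. The labels do not say what the numbers share. Alternatives covered background correction, offset, normalization, filters, probe choice, array weights, blocks and leaving out each array.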

Additional observations from a re-analysis of the deposited data

Results flagged for a closer look

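Among groups of 4 arrays, which here means pancreas, 1 array lay far from the others for 4 of 45 genes, where chance marks about 1 in 20. Pancreas replicate 3 had the lowest value for Cyp3a13 (6.107 against 6.185 to 6.198 on the others), Gstm1 (7.587 against 8.254 to 8.325) and Sult5a1 (6.013 against 6.275 to 6.321). Cyp3a13 and Sult5a1 were not above background on these arrays. Pancreas replicate 4 had the highest value for Ugt2b34 (7.587 against 6.854 to 6.926).

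Some genes changed from E8.25 endoderm in opposite directions in 2 organs, with every array of one organ above and every array of the other below. Each difference below equals the limma comparison of the 2 organs, and only pairs called in that comparison were listed. Gsta4 changed by 1.48 in stomach and -1.45 in liver, 2.929 apart. Gsto1 fell in lung, at -1.01, and the other organs lay above that change by 2.228 in esophagus, 3.428 in stomach, 3.209 in liver, 2.406 in pancreas and 3.939 in intestine. Gstt3 fell in pancreas, at -1.17, and lay higher by 2.243 in esophagus and 2.464 in stomach.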

How the results depend on the processing

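No called difference changed direction. Of 1642 recomputed differences with 1 array left out, 1615 kept their call and 27 did not, and of 1242 under the other settings 1191 kept it and 51 did not. Counts of called genes depended most on the background correction. Without it they were 5 in endoderm (3 as reported), 2 in ectoderm (1), 20 in esophagus (8), 21 in lung (11), 11 in stomach (7), 15 in pancreas (5), 13 in intestine (8), 20 in the 6 organs against E8.25 endoderm (13) and 19 above each other organ (12). With receptor probes as negative controls they were 5, 2, 20, 18, 12 and 11 for endoderm, ectoderm, esophagus, lung, stomach and pancreas, and 19 above each other organ. With an offset of 16 they were 5, 2, 16 and 8 for endoderm, ectoderm, esophagus and pancreas. With the mean over all probes of a gene endoderm had 1 and intestine 5, Gstm1 in stomach was 0.57 and Cyp2c67 in intestine 0.77. Within the arrays over 20000, an alternative chosen after seeing the data, endoderm had 1. The cause was not tested. Calls over all tested genes also changed with the setting, as given for mesoderm, and their shares are not set beside these counts. The counts describe the settings and are not results about the enzymes. On leaving out single arrays, counts ran from 2 to 4 in endoderm, 1 to 2 in ectoderm, 2 to 4 in mesoderm, 8 to 10 in esophagus, 11 to 11 in lung, 7 to 8 in stomach, 18 to 23 in liver, 4 to 7 in pancreas and 8 to 8 in intestine. They ran from 12 to 13 for the organs and 22 to 27 for liver against E8.25 endoderm, and 11 to 14 above each other organ. Pancreas genes above background went from 14 to 28 without replicate 3 or when a majority of arrays sufficed. With the replicate block, liver had 21 called genes and pancreas 6, and all 105 called differences kept their call. As that block is common to all groups, this does not show what pairing within some group pairs would do. With the intensity class as a block, Ugt2b34 in liver was 0.71, Gstm2 in liver -0.84 and Gstt3 in mesoderm -0.90, and called genes split in mesoderm 397 to 412, against 641 to 548 with receptor controls. Genes near background limit what can be seen.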

Other observations

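Cyp4f13, a fatty acid hydroxylase of the P450 4 family, was higher on replicate 2 than on replicates 1 and 3 in lung (6.88 against 5.82 and 6.05), stomach (7.27 against 5.85 and 6.05) and intestine (8.01 against 6.20 and 6.82), and no difference between groups was called for it. Sult5a1 read 7.11, 7.28 and 6.79 in esophagus, where all 3 values were above background, without a call. Fmod, which the rule takes by its letters alone, read 7.36, 8.72 and 8.49 in lung and 7.53, 7.80 and 7.58 in esophagus, and was higher in lung than in the other organs by 1.58 ± 0.18 (limma, adjusted p = 2.25e-07), with its second probe at 0.86 and not called.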
